A study of Mus musculus with 2 samples.

Results

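Nuclear receptors are transcription factors that bind small lipophilic ligands, or in some cases none, and act at DNA response elements. The 10 genes described here are Nr3c1, which encodes the glucocorticoid receptor, the thyroid hormone receptors Thra and Thrb, the retinoic acid receptor Rara, the retinoid X receptors Rxra and Rxrb, the fatty acid receptor Ppara, the estrogen receptor Esr1, the vitamin D receptor Vdr and the ligand-independent receptor Nr4a1. They were picked by gene name, with no threshold on their values, and all 10 were found among the 43346 annotated genes of each gene table. RNA selected for poly(A) tails was sequenced from G1E cells, an immortalized mouse line described in the labels as a Gata1- erythroid progenitor and known to derive from embryonic stem cells with a disrupted Gata1 gene. The labels call the line male and postnatal, with an age of 0 days, and name no treatment. The hormone content of the medium is not given in the sources used here. There is 1 group of 2 libraries, labelled biological replicates 1 and 2, which cite the same biosample, so there is no control group and the spread given is that between these libraries.

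The glucocorticoid receptor waits in the cytoplasm on an Hsp90 complex, enters the nucleus when it binds a corticosteroid and binds DNA as a homodimer. Thyroid hormone, retinoic acid, vitamin D and fatty acid receptors mostly bind DNA as heterodimers with a retinoid X receptor. In erythroid progenitors, glucocorticoids acting with stem cell factor and erythropoietin are known to favour self-renewal over maturation, a response called stress erythropoiesis.

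The libraries held 31633573 expected counts in replicate 1 and 56978193 in replicate 2, and the effective lengths in the files imply reads of 36 and 55 nt. All 9 erythroid progenitor markers reached 1 TPM (transcript copies scaled to a fixed total per library, a level per length) in both libraries, Gata1 among them, whereas 0 of 4 fibroblast and 0 of 3 hepatocyte markers did. The counts for megakaryocyte, mast cell, myeloid and lymphoid markers were 3 of 4, 2 of 4, 1 of 4 and 1 of 5. Gata1 itself had 88.15 TPM in replicate 1 against 61.44 TPM in replicate 2, from 3748 and 5037 counts, which goes against a reading of the label as absence of its RNA. The gene tables do not show which part of Gata1 these reads cover, so they do not check the disruption. Replicate 1 held more low-level signal: 1306 protein-coding genes had at least 10 counts there and none in replicate 2, against 36 the other way round. In bulk RNA, fewer cells that express a gene and less of its RNA per cell cannot be told apart.

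Transcripts of Thra part at the coding end, those of Rara at the coding start, and those of Rxrb at the start and at an internal insert. Stretches where they part are shown first. All are reference coding sequences from the GENCODE M21 transcripts on GRCm38, read on the plus strand 5′ to 3′. Thra-202 encodes thyroid hormone receptor alpha1 in 410 codons. Thra-201 encodes alpha2 in 492 codons, a splice form known not to bind thyroid hormone. Capitals mark the first coding bases that each has alone after 1110 shared coding bases, from chr11:98764385-98764465 for Thra-202 and, across an intron, chr11:98764385-98768216 for Thra-201.
Thra-202: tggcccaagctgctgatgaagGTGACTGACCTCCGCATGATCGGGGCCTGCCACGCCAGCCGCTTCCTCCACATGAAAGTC
Thra-201: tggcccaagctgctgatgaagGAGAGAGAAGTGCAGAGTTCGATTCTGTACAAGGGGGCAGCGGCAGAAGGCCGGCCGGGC

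The Rara transcripts part at the start of the protein. Rara-207 encodes the alpha1 form in 462 codons and Rara-202 the alpha2 form in 459 codons, and the amino-terminal stretch that differs is known to carry a ligand-independent activation function. Capitals mark the last bases that each has alone before the shared coding sequence, from chr11:98950736-98966367 for Rara-207 and chr11:98961074-98966367 for Rara-202, introns left out.
Rara-207: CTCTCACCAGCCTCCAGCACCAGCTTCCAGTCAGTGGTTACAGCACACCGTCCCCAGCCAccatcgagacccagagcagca
Rara-202: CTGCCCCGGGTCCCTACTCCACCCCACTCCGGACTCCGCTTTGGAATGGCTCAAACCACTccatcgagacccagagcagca

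Rxrb-201 encodes 524 codons and Rxrb-202 encodes 410. They have different first exons and most of the difference lies at the coding start, which is not shown. Further in, Rxrb-201 has 12 coding bases, 4 codons, that Rxrb-202 skips. Capitals mark them within chr17:34036737-34036893, introns left out.
Rxrb-201: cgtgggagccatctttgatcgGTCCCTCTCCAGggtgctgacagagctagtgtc
Rxrb-202: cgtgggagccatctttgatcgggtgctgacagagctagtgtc

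Of the 10 receptor genes, 5 were expressed in G1E cells, here meaning 1 TPM or more in both libraries: Rxrb, Nr3c1, Rara, Thra and Thrb. The same rule called 42.5% of 21474 protein-coding genes, so the share of members called lies near that of genes at large. The members ranged from 76.6 TPM for Rxrb to 0.02 TPM for Nr4a1 on average. A retinoid X partner, a glucocorticoid receptor, a retinoic acid receptor and both thyroid hormone receptors were thus present as RNA, while Rxra and Nr4a1 had at most 4 counts in either library.

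**Figure D1:**
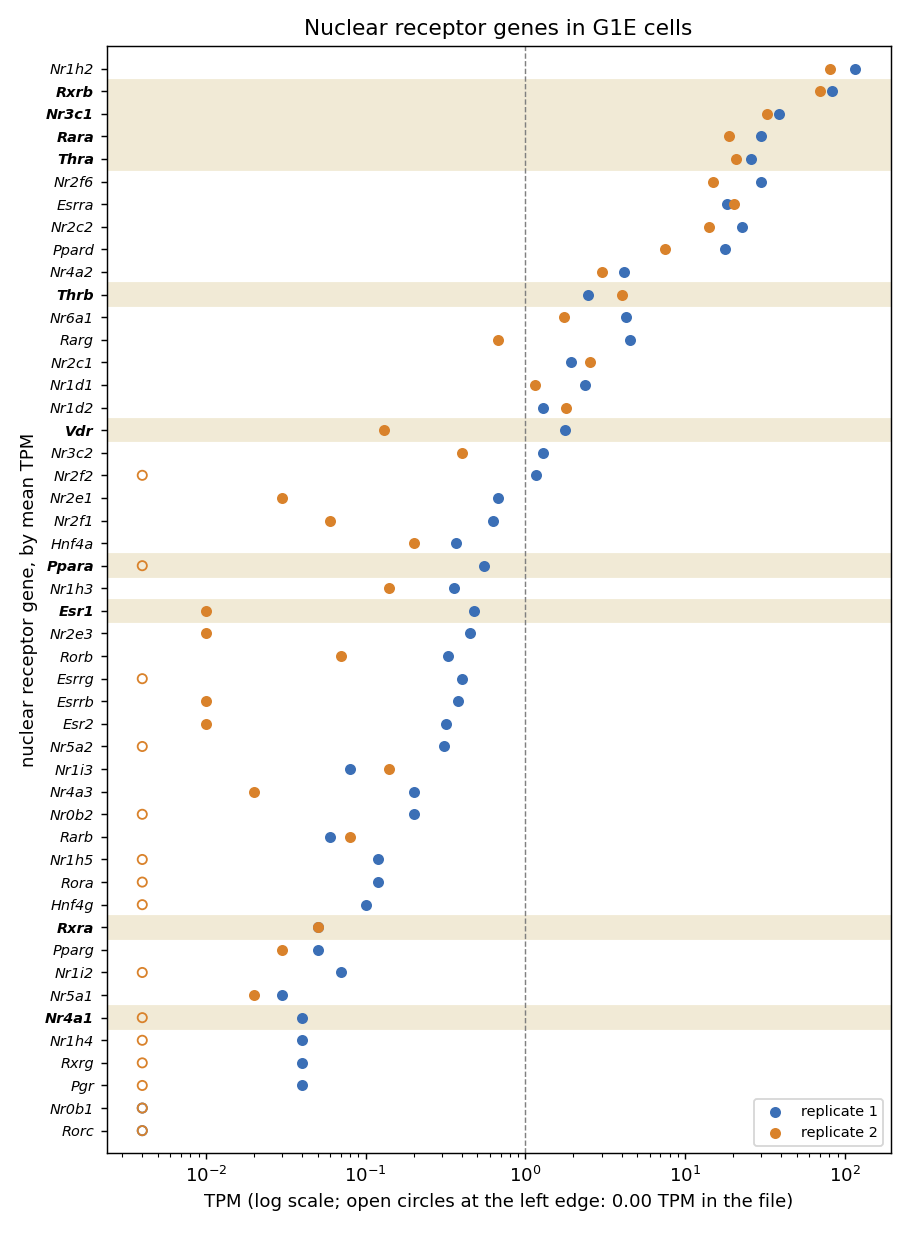
Level of nuclear receptor genes in TPM (log axis) in replicate 1 (blue) and replicate 2 (orange), ordered by mean, with the 10 members in bold on shaded rows and open circles for 0.00 TPM. The dashed line is at 1 TPM; Rxrb, Nr3c1, Rara, Thra and Thrb lie right of it in both libraries.

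Rxrb, the retinoid X receptor beta gene on chromosome 17 (34031812 to 34038399, plus strand), was the highest member. Replicate 1 gave 83.05 TPM and replicate 2 70.18 TPM, from 3417 and 6050 counts, with a mean of 76.6 ± 9.10 TPM (SD, n = 2). Both values were above every other member in either library. Its mean exceeded that of 91.8% of protein-coding genes.

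Rxra, the retinoid X receptor alpha gene on chromosome 2 (27676440 to 27762957, plus strand), stood at 0.05 TPM in both libraries, from 3 and 4 counts. That is at the limit that 3 counts give for this gene, 0.0467 TPM in replicate 1 and 0.0349 TPM in replicate 2, so Rxra was hardly detectable at this depth. Rxrg, the gamma gene, was at 0.04 and 0 TPM. Rxrb therefore supplied 99.9% of the summed TPM of the 3 retinoid X receptor genes in each library. On the log2(TPM + 1) scale, which understates differences of low genes, Rxrb exceeded Rxra by 6.20 ± 0.17 (SD, n = 2).

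Nr3c1, the glucocorticoid receptor gene on chromosome 18 (39410545 to 39519421, minus strand), came second. Replicate 1 gave 38.77 TPM and replicate 2 32.66 TPM, from 3190 and 6657 counts, with a mean of 35.7 ± 4.32 TPM (SD, n = 2). It was below Rxrb in both libraries, by 1.08 in each on the log2(TPM + 1) scale, and above all other members. Which library was higher depended on the length used: the files divided Nr3c1 counts by a mean transcript length of 3558 bases in replicate 1 and 4549 in replicate 2. With 1 effective length for both, and scaled to protein-coding genes only, the levels became 41.5 and 48.2 on that TPM-like scale.

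Related steroid receptors were lower. Nr3c2, the mineralocorticoid receptor gene, whose product also binds glucocorticoids, stood at 1.28 and 0.40 TPM. Nr3c1 exceeded Nr3c2 by 4.36 ± 0.33 on the log2(TPM + 1) scale (SD, n = 2), with the same direction in both libraries. Pgr, the progesterone receptor gene, was at 0.04 TPM in replicate 1 and listed at 0 in replicate 2.

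Rara, the retinoic acid receptor alpha gene on chromosome 11 (98927818 to 98974942, plus strand), had 29.80 TPM in replicate 1 against 18.69 TPM in replicate 2, from 2069 and 2495 counts (mean 24.2 ± 7.86, SD, n = 2). Its paralogs were lower in both libraries, Rarg at 4.53 and 0.67 TPM and Rarb at 0.06 and 0.08 TPM. The log2(TPM + 1) difference was 3.02 ± 0.77 for Rara over Rarg and 4.52 ± 0.48 for Rara over Rarb (SD, n = 2). Against Rxra it was 4.55 ± 0.46.

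Thra, the thyroid hormone receptor alpha gene, lies upstream of Rara on the same strand of chromosome 11 (98740638 to 98769006). It had 25.66 TPM in replicate 1 against 20.87 TPM in replicate 2, from 1289 and 1841 counts (mean 23.3 ± 3.39, SD, n = 2). The ranges of Rara and Thra overlapped, and their order changed between the libraries.

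Thrb, the thyroid hormone receptor beta gene on chromosome 14 (17660261 to 18038090, plus strand), was lower, with 2.48 TPM in replicate 1 against 4.02 TPM in replicate 2, from 346 and 1017 counts (mean 3.25 ± 1.09, SD, n = 2). It was the only expressed member with a higher TPM in replicate 2. Thra exceeded it by 2.53 ± 0.58 on the log2(TPM + 1) scale (SD, n = 2), with the same direction in both libraries.

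Vdr, Ppara and Esr1 were seen mainly in replicate 1. Vdr, the vitamin D receptor gene on chromosome 15 (97854425 to 97910630, minus strand), had 1.78 TPM in replicate 1 against 0.13 TPM in replicate 2, from 138 and 12 counts (mean 0.955 ± 1.17, SD, n = 2). It passed 1 TPM in replicate 1 only.

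Ppara, the receptor alpha gene of the peroxisome proliferator-activated family on chromosome 15 (85734983 to 85802819, plus strand), had 32 counts in replicate 1, 0.55 TPM, and 0 in replicate 2. A count of 0 allows up to 0.0456 TPM there. Esr1, the estrogen receptor alpha gene on chromosome 10 (4611593 to 5005614, plus strand), had 36 counts in replicate 1, 0.48 TPM, and 1 count in replicate 2, 0.01 TPM. Both stayed under 1 TPM in both libraries.

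These differences sat beside the wider low-level signal of replicate 1. Of 4220 protein-coding genes under 1 TPM on average with at least 10 counts, 86.2% were higher in replicate 1 on scaled counts. The summed level of the 4 fibroblast markers was 1.17 TPM in replicate 1 and 0.03 TPM in replicate 2, that of the 3 hepatocyte markers 0.35 and 0.13 TPM with Ttr at 0 in both, and that of the 5 lymphoid markers 4.75 and 2.66 TPM. The summed level of the 9 erythroid progenitor markers was also higher in replicate 1, at 2551.74 and 1525.16 TPM. Tfrc at 48.43 and 138.58 TPM and Epor at 89.49 and 96.74 TPM went the other way. The remaining lists had higher sums in replicate 2. Their sums were 3.64 and 15.93 TPM for 4 myeloid, 7.47 and 17.03 TPM for 4 mast cell and 38.45 and 53.60 TPM for 4 megakaryocyte markers. The myeloid sum rested mainly on Lyz2 at 3.20 and 15.65 TPM and the mast cell sum on Cpa3 at 4.66 and 15.29 TPM. Within these lists Mpo, Csf1r, Hdc, Fcer1a and Gp9 were higher in replicate 1. The part of these cell types in the levels of Vdr, Ppara and Esr1 was not tested.

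The relatives of these receptors differed in whether they were expressed. Ppard, the delta gene of the Ppara family, stood at 17.67 and 7.52 TPM, above Ppara by 3.34 ± 0.35 on the log2(TPM + 1) scale (SD, n = 2). Pparg, the adipocyte receptor, stood at 0.05 and 0.03 TPM, and Esr2, the beta estrogen receptor, at 0.32 and 0.01 TPM. Neither Ppara against Pparg nor Esr1 against Esr2 kept a difference of 2-fold in both libraries.

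Nr4a1, an immediate-early gene on chromosome 15 (101254269 to 101274795, plus strand), had 2 counts in replicate 1, 0.04 TPM, and none in replicate 2, where 0 counts allow up to 0.0273 TPM. Its paralog Nr4a2 was expressed at 4.13 and 3.02 TPM and Nr4a3 stood at 0.20 and 0.02 TPM. Nr4a1 was below Nr4a2 by 2.15 ± 0.21 on the log2(TPM + 1) scale (SD, n = 2).

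In the order of mean level, 5 of 9 neighbouring members had ranges over the libraries that did not overlap. The 4 steps not apart beyond the spread were Rara to Thra, Vdr to Ppara, Ppara to Esr1 and Esr1 to Rxra. The last step that was apart, Rxra to Nr4a1, rests on 4 counts or fewer in each library.

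Of 49 nuclear receptor genes 15 were expressed. These were 5 of the 10 members and 10 of the 39 other receptors, against 42.5% of all protein-coding genes. The members supplied 44.2% of the summed receptor TPM in replicate 1 and 49.5% in replicate 2. Nr1h2, the liver X receptor beta gene for oxysterols, was the only receptor above Rxrb on average, at 115.41 and 80.50 TPM. The plot of receptor levels shows Rxrb, Nr3c1, Rara and Thra in the next places by mean, followed by the orphan receptor genes Nr2f6 at 30.02 and 14.91 TPM and Esrra at 18.25 and 20.27 TPM.

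By distance of log2(TPM + 1) over the 2 libraries, Nr1h2 lay nearest to Rxrb at 0.51. Thra was nearest to Nr3c1 at 0.85, and Rara and Thra were nearest to each other at 0.26. Nr2c1 was nearest to Thrb at 0.56. The second nearest were Nr3c1 for Rxrb, Rara for Nr3c1, Nr2f6 for Rara, Esrra for Thra and Nr4a2 for Thrb. With 2 libraries this is a likeness of level and not of pattern.

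Nr2c1 and Nr2c2 encode the orphan receptors TR2 and TR4, known as repressors at embryonic globin genes in erythroid cells. Nr2c2 stood at 22.58 and 14.04 TPM, a range that overlapped Thra, and Nr2c1 at 1.92 and 2.55 TPM, overlapping Thrb. The difference of Nr2c1 from Nr2c2 was -2.55 ± 0.66 on the log2(TPM + 1) scale (SD, n = 2). Of 16 pairs of receptors or cofactors set side by side, 13 differed by 2-fold or more in the same direction in both libraries. The exceptions were Ppara with Pparg, Esr1 with Esr2 and Nr4a1 with Nr4a3.

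Counts scaled by the trimmed mean of M-values (TMM) were then compared between the libraries to see how far each member rests on either one. The comparison required 50 counts in total, which 6 members had, and 1 of them, Vdr, differed by 2-fold or more, 20.7-fold higher in replicate 1. Among all 12414 genes so compared, 13.1% were at least 2-fold higher in replicate 1 and 16.4% in replicate 2. The member count is therefore near the background. There is 1 library on each side and no test.

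The log2 ratio of replicate 2 over replicate 1 was 0.65 for Thrb, 0.16 for Nr3c1, -0.39 for Thra and -0.63 for Rara. For Rxrb it was -0.08, and it turned to 0.16 with DESeq2 size factors and to 0.17 with TMM factors over all genes. Those scalings moved the median of all genes up by 0.24 and 0.25 relative to the TMM factors used, so ratios of that size depend on the scaling. Among the members compared only Rxrb changed sign, while Nr3c1 went to 0.40 and 0.41. The median absolute log2 ratio was 0.39 over the expressed members and 0.59 over all genes compared.

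**Figure D2:**
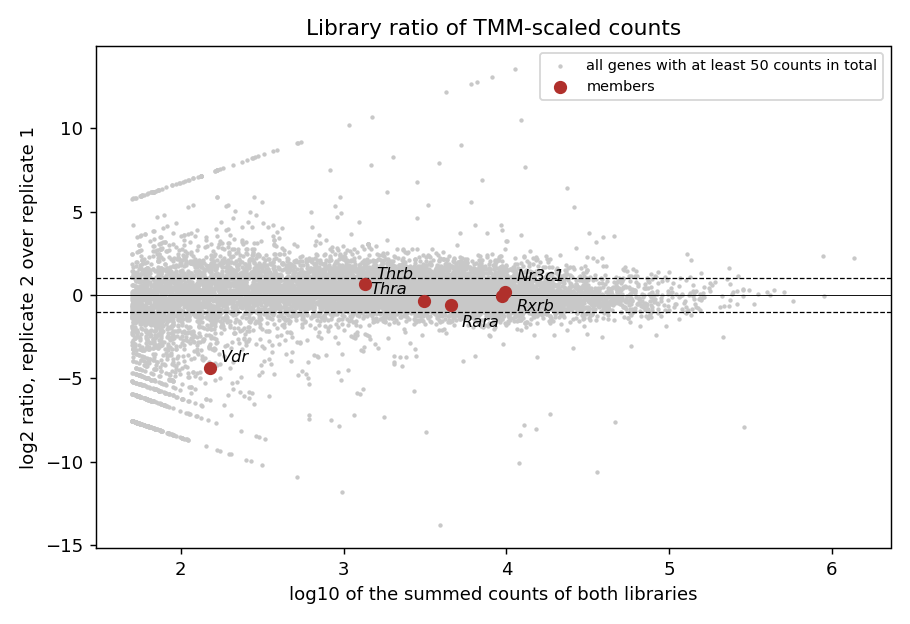
Log2 ratio of TMM-scaled counts, replicate 2 over replicate 1, against the log10 of the summed counts, for 12414 genes (grey) and the 6 members with at least 50 counts (red); dashed lines mark 2-fold. Thrb, Nr3c1, Rxrb, Thra and Rara lie within 2-fold and Vdr at -4.37.

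The files divide each gene's reads among its annotated transcripts by estimation, and the shares that follow are percent of the gene's TPM. Of the 5 members with at least 100 counts in each library, 3 had the same leading transcript in both: Rxrb-202, Rara-207 and Thrb-203. Nr3c1 and Thra changed leader between the libraries. Of the 66 member transcripts, 58 kept their length in the annotation used here.

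**Figure D3:**
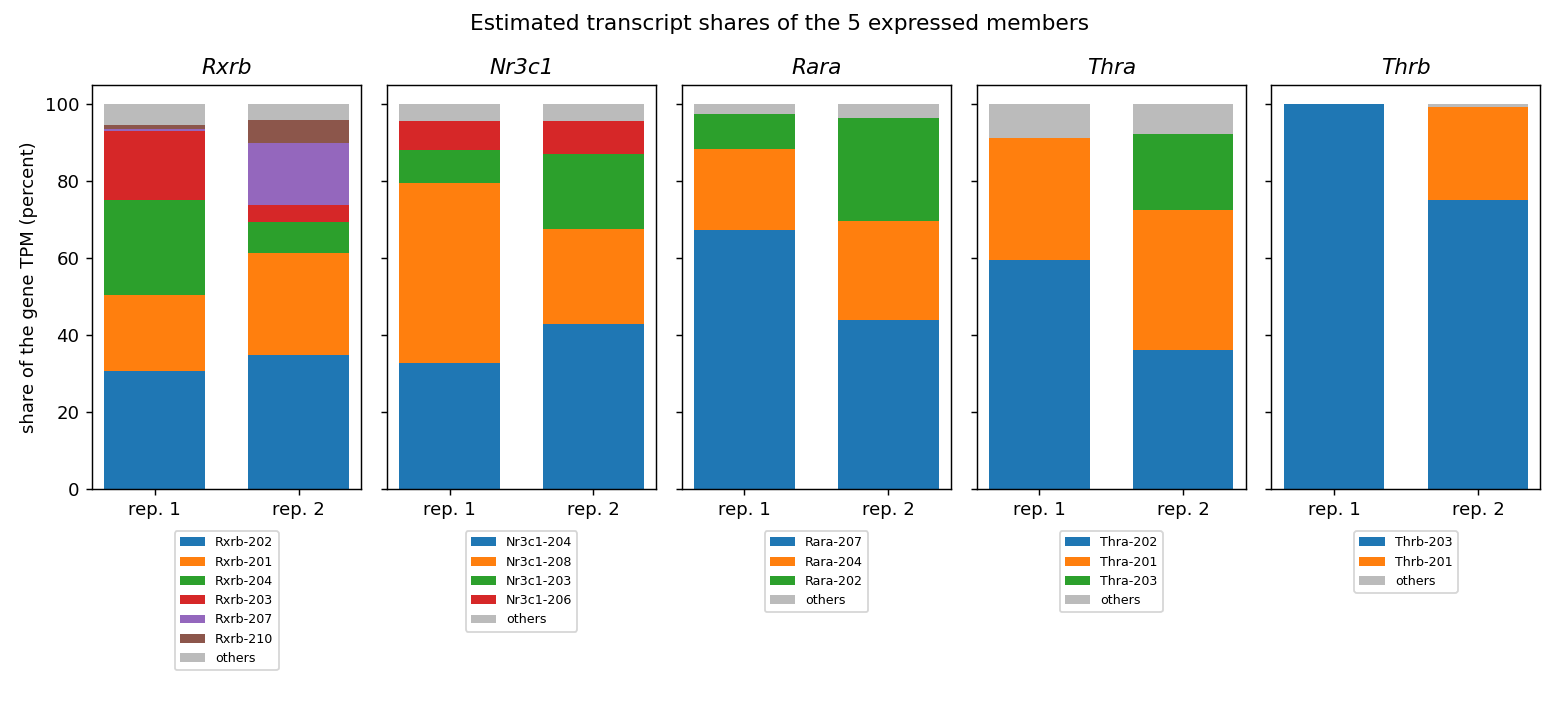
Share of the gene TPM (percent) assigned to each transcript of Rxrb, Nr3c1, Rara, Thra and Thrb in replicate 1 and replicate 2; transcripts under 5% in both libraries are pooled as others. Rxrb-202, Rara-207 and Thrb-203 hold the largest segment in both libraries, while Thra-202 goes from 59.4% to 35.9%.

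Thra-202, the alpha1 form whose separate end is printed above, took 59.4% of Thra TPM in replicate 1 and 35.9% in replicate 2. Thra-201, the alpha2 form, took 31.8% and 36.6%. Both forms were thus assigned reads in each library, and neither led in both. Thra-203, an incomplete model that also ends in the distal exon region, was assigned 0 and 19.6%. Together Thra-201 and Thra-203 took 31.8% in replicate 1 and 56.2% in replicate 2.

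The ends of Thra-201 and Thra-203 need care. The last exon of Thra-201 (98768157 to 98769006) overlaps the last exon of Nr1d1, the heme-binding receptor REV-ERB alpha, by 263 bases on the opposite strand. That of Thra-203 (98768274 to 98768403) lies wholly within this Nr1d1 exon (98767932 to 98768419). Of the 36-base words of Thra transcripts, 5.05% were shared with Nr1d1 in antisense. No source used here says whether counting used strand, and without it reads of the overlap cannot be assigned to either gene. Nr1d1 itself stood at 2.37 and 1.15 TPM, below Thra by 3.17 ± 0.26 on the log2(TPM + 1) scale (SD, n = 2).

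Rara-207, with the alpha1 start, took 67.3% of Rara TPM in replicate 1 and 44.0% in replicate 2. All transcripts that encode the alpha1 protein together took 90.9% and 73.3%. Rara-202, with the alpha2 start, took 9.13% and 26.7%. The alpha1 form was thus the larger in both libraries, while the alpha2 share differed between them.

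For Rxrb, Rxrb-202, of 410 codons, led with 30.6% in replicate 1 and 34.8% in replicate 2, and Rxrb-201, of 524 codons, took 19.8% and 26.4%. These forms differ in their start as well as in the insert printed above, so the shares are of whole transcripts and not of the insert. The 6 transcripts annotated with a retained intron took 31.3% and 18.3% of Rxrb TPM but 482 of 3417 and 421 of 6050 counts. Several Rxrb models differ in length between the files and the annotation used here. Rxrb-201 has 2623 bases against 2627 and Rxrb-204, which is in the retained-intron sum, 845 against 939, so their structure in the files may differ from that described. Rxrb-203 has 1743 bases against 2502 and Rxrb-207 has 1547 against 2577, and their structure is not described.

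The Nr3c1 transcripts that hold the complete coding sequence of 792 codons, 3 in number, together took 41.3% of its TPM in replicate 1 and 63.3% in replicate 2. In counts they held 2360 of 3190 and 5892 of 6657. Nr3c1-208, an incomplete model of 1891 bases, led replicate 1 with 46.9% and took 24.7% in replicate 2, from 788 and 672 counts. Complete Nr3c1 transcripts thus held most counts in both libraries, although a shorter model led by TPM in replicate 1.

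Thrb-203 took 100% of Thrb TPM in replicate 1 and 75.2% in replicate 2, where Thrb-201 took 24.1%. Thrb-203 is 5997 bases long in the files and 1758 bases in the annotation used here, so its structure is not described. The transcripts of Vdr, Ppara, Esr1, Rxra and Nr4a1 had too few counts to be divided.

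Genes around the receptors were described by 15 lists of cofactors, ligand enzymes and known targets. Of 179 distinct genes measured, 88 were expressed, against the 42.5% of all protein-coding genes. The lists of chaperones and cofactors were expressed nearly whole, and those of ligand supply in a minority of genes. The median over all protein-coding genes was 0.365 TPM. This median and the 42.5% are the background for every list that follows.

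**Figure D4:**
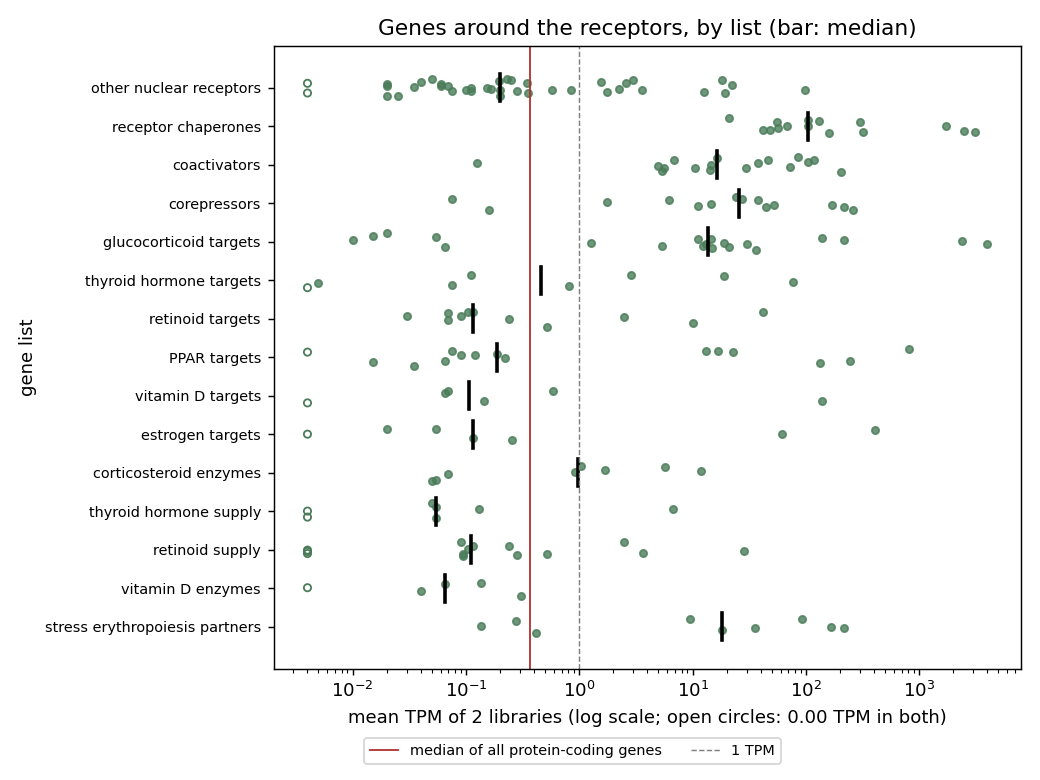
Mean TPM over 2 libraries (log axis) of each gene in 15 lists, with a black bar at the list median, a red line at the median of all protein-coding genes (0.365 TPM) and a dashed line at 1 TPM. Chaperones lie highest, with a median of 105 TPM, and the lists of vitamin D enzymes and thyroid hormone supply lie lowest.

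All 15 receptor chaperone genes were called expressed, and their median was 105 TPM. Hsp90ab1 and Hsp90aa1, the Hsp90 genes that hold the glucocorticoid receptor ready for hormone, stood at 2570.53 and 2434.82 TPM and at 1948.76 and 1466.97 TPM. Hspa8, the constitutive Hsp70 gene, was higher, at 3492.88 and 2718.05 TPM. These chaperones serve many other proteins.

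Genes listed as coactivators were expressed in 16 of 17 cases, with a median of 16.3 TPM. Nrip1 was on this list and on that of corepressors. The highest were Trip12 at 249.38 and 158.83 TPM, Carm1, an arginine methyltransferase, at 161.58 and 72.67 TPM, and Pprc1 at 143.97 and 63.00 TPM. The exception was Ppargc1a, the coactivator of mitochondrial genes, at 0.25 TPM and 0.

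Genes listed as corepressors, Nrip1 again among them, were expressed in 12 of 14 cases, with a median of 25.9 TPM. Gps2, a subunit of the NCoR complex, stood at 424.94 and 98.51 TPM, and Sin3a, a histone deacetylase scaffold, at 310.93 and 30.55 TPM, a wide spread for both. In counts they had 8879 and 4292 and 6344 and 5308. The log2 ratio of scaled counts, replicate 2 over replicate 1, was -1.95 for Gps2 and -1.16 for Sin3a. The gap of Sin3a was thus much wider in TPM than in scaled counts. Ncor1, the corepressor that unliganded thyroid and retinoic acid receptors bind, stood at 295.68 and 135.54 TPM. Hr, a corepressor of thyroid hormone receptors, stood at 0.12 and 0.03 TPM.

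Known glucocorticoid targets were expressed in 14 of 20 cases, with a median of 13.7 TPM. Over all protein-coding genes 42.5% were expressed and the median was 0.365 TPM. The metallothionein genes Mt1 at 3912.64 and 3948.47 TPM and Mt2 at 2357.57 and 2455.84 TPM were highest, and both also answer to metals. Zfp36l2, an RNA-binding protein gene known to act in erythroid self-renewal, stood at 233.89 and 195.98 TPM. Of those under 1 TPM in both libraries, the highest on average were the iron carrier gene Lcn2 at 0.13 TPM and 0 and the gluconeogenic gene Pck1 at 0.11 TPM and 0.

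Further glucocorticoid targets are named here after their values were seen. Tsc22d3, which encodes the leucine zipper protein GILZ, stood at 12.21 and 16.64 TPM and Fkbp5, a feedback chaperone of the receptor, at 27.08 and 15.23 TPM. Per1, a clock gene, stood at 44.10 and 16.12 TPM and Sgk1, a kinase gene, at 42.53 and 30.58 TPM. Others on the same list were near 0, with Errfi1 at 0.03 TPM and 0, Cebpd at 0 and 0.04 TPM and Tat at 0.02 TPM and 0. Without a sample that was deprived of or given hormone, these levels do not show receptor activity.

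Of the 9 genes listed as partners in stress erythropoiesis, 6 were expressed, with a median of 18.3 TPM, against 42.5% of all protein-coding genes. The list includes the members Nr3c1 and Ppara, and Nr3c1 is among the 6. Kit, the stem cell factor receptor, stood at 191.21 and 139.94 TPM and Epor, the erythropoietin receptor, at 89.49 and 96.74 TPM, both above Nr3c1. Bmp4, a signal of the spleen niche, stood at 0.83 TPM and 0, and Ppara, itself on the list, is given above.

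Target genes of the other receptors were expressed in part, the thyroid hormone targets in a share near the 42.5% of all protein-coding genes. For thyroid hormone, 3 of 8 were, with a median of 0.46 TPM: the calcium pump gene Atp2a2 at 77.12 and 78.07 TPM, the transcription factor gene Klf9 at 22.08 and 15.70 TPM and malic enzyme Me1 at 2.47 and 3.23 TPM. Bcl3 stood at 0.75 and 0.87 TPM and Thrsp, a lipogenic target, at 0.17 and 0.05 TPM.

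For retinoids, 2 of 11 targets were expressed, with a median of 0.115 TPM. They were the transglutaminase gene Tgm2 at 45.99 and 37.93 TPM and the granulocyte factor gene Cebpe at 6.01 and 14.34 TPM. Dhrs3, a retinal reductase gene, passed 1 TPM in replicate 1 only, at 4.44 and 0.56 TPM. Cyp26a1, the retinoic acid hydroxylase gene, stood at 0.22 and 0.26 TPM.

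For the PPAR family, 6 of 15 targets were expressed, near the 42.5% of all protein-coding genes, with a median of 0.19 TPM. Ucp2, a mitochondrial carrier gene, stood at 807.14 and 802.74 TPM, the lipid droplet gene Plin2 at 241.07 and 248.05 TPM and the beta-oxidation gene Hadha at 162.70 and 105.84 TPM. Pdk4 stood at 0.32 and 0.12 TPM and Cd36, a fatty acid transporter gene, at 0.20 and 0.18 TPM. Targets of this family are shared with Ppard, which was expressed.

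For vitamin D, 1 of 6 targets was expressed, the cell cycle inhibitor gene Cdkn1a at 163.17 and 116.73 TPM, with a list median of 0.108 TPM. Calb1, a calcium-binding protein gene, stood at 1.17 TPM and 0, S100g at 0.29 TPM and 0, and the calcium channel gene Trpv6 at 0.12 and 0.02 TPM. For estrogen, 2 of 7 were expressed, with a median of 0.115 TPM: Myc at 530.67 and 280.93 TPM and Xbp1 at 50.88 and 73.24 TPM. Ccnd1 stood at 0.32 and 0.19 TPM and Greb1 at 0.23 TPM and 0. Cdkn1a, Myc and Xbp1 have many other regulators.

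Genes that make, carry or clear the ligands came in 4 lists. Of the 8 corticosteroid enzyme genes 3 passed the rule, near the 42.5% of protein-coding genes, and the list median of 0.983 TPM lay above the protein-coding median of 0.365 TPM. The 3 were H6pd, which supplies NADPH to the cortisone reductase, at 15.52 and 8.45 TPM, Srd5a1, a steroid reductase gene, at 6.26 and 5.15 TPM and Star, a cholesterol transfer gene, at 1.56 and 1.85 TPM. Cyp11b1 and Cyp21a1, needed to make corticosteroids, stood at 0.14 TPM and 0 and at 0.11 TPM and 0.

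Of 7 genes for thyroid hormone supply 1 was expressed, the transporter gene Slc16a10 at 6.24 and 7.21 TPM, and the list median was 0.055 TPM. The binding protein gene Crym stood at 0.26 TPM and 0. Of 14 genes for retinoid supply 2 were expressed, the retinol dehydrogenase genes Rdh11 at 33.07 and 23.46 TPM and Rdh10 at 3.65 and 3.72 TPM, with a median of 0.11 TPM. Aldh1a3, a retinoic acid synthase gene, stood at 0.35 and 0.21 TPM.

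None of 5 vitamin D enzyme genes was expressed, and the list median was 0.065 TPM. Cyp27b1, the activating hydroxylase gene, stood at 0.26 and 0.35 TPM, Cyp24a1, the catabolic hydroxylase gene, at 0.13 TPM and 0, and Gc, the carrier protein gene, at 0.27 TPM and 0. Of the 39 other nuclear receptors 10 were expressed, with a median of 0.20 TPM. Nr2e1 at 0.67 and 0.03 TPM and Nr2f1 at 0.63 and 0.06 TPM led those under 1 TPM in both libraries.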

How the data were processed

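Poly(A) RNA-seq of G1E cells gave 2 libraries in 1 group. Per the deposited notes, the tables use assembly mm10 and GENCODE M4; the sources used here name neither the quantifier nor a strand setting. Expected counts were deposited without normalisation and were rounded for scaling. TPM and FPKM values were deposited per effective length, scaled over all features of a library, and protein-coding genes took 84.4% of TPM in replicate 1 and 75.1% in replicate 2. The deposited signal column used is a posterior mean of TPM, and the percent column deposited with transcripts is their share of the gene's TPM. Rows naming no gene held 0.0363% and 0.00942% of counts and were left out.

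Symbols and structures came from GENCODE M21 (GRCm38), where 42462 identifiers matched and 884 did not; Prmt1 found no match. Ratios used edgeR 4.0.16 TMM factors (0.982 and 1.018, from 12457 genes after its filter), with 0.5 added to counts, and were tested on simulated data. With 1 group no p-value was possible. Floors of 3 counts cover counting error only. Alternatives were DESeq2 1.42.0 size factors, other thresholds, pseudocounts and TPM scalings, FPKM, posterior means and each library alone.

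The members, although picked by name with no threshold on values, and the lists were chosen with earlier results of these data known. Named genes were the members, the pairs, up to 3 genes of highest mean TPM and up to 2 under 1 TPM in both libraries of each list, and the 2 receptors nearest each expressed member. A few genes that this rule names are not reported here.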

Additional observations from a re-analysis of the deposited data

How the results depend on the processing

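The 5 expressed members stayed 5 at 0.5 and 2 TPM, with FPKM, posterior means or TPM over protein-coding genes, and with 1 effective length per gene, an alternative added after seeing the data. From either library alone the count was 5 to 6, with Vdr the addition in replicate 1. Between 6 and 9 of the 9 steps in the order held in a single library. The number of members apart by 2-fold between libraries went from 1 to 4 with no minimum count, where Ppara, Esr1 and Nr4a1 join Vdr on 37 counts or fewer; it stayed 1 with DESeq2 factors, total counts and, added after seeing the data, TMM over all genes. The pairs kept 13 of 16 under every setting run, but the size of most differences moved beyond their SD with a pseudocount of 0.1. Rxrb over Rxra went from 6.20 to 8.99, Ppara over Ppard from -3.34 to -5.51 and Nr4a1 over Nr4a2 from -2.15 to -4.94. Thra over Thrb went from 2.53 to 2.83, within its SD. The list genes expressed ranged from 82 to 94 (91 and 94 in either library alone). The share of Thra-202 ran from 35.9% to 59.4% and that of Rara-207 from 44.0% to 67.3% by library. No paired analysis was possible because there is 1 group. Depth limits Rxra and Nr4a1, at 4 counts or fewer.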
